A study of Mus musculus with 14 samples.

Results

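Pyrimidine and deoxynucleotide synthesis was examined through 9 genes in the embryonic mouse kidney: Cad, Dhodh, Umps and Ctps of pyrimidine synthesis, and Tyms, Tk1, Dtymk, Rrm1 and Rrm2 of deoxynucleotide supply. They were chosen by name from what their enzymes do, with earlier results of these data known, among 55861 gene identifiers in the count tables of the series. All 9 were present in both tables and deep enough to be tested in both tissues. The libraries were RNA-Seq of sorted GFP-positive cells from kidneys labelled as double knockouts (dko) of both MEK kinases, the activators of ERK in the MAPK/ERK pathway, and from controls. Ureteric bud (UB) epithelium was taken at E12.5 and nephron progenitors of the metanephric mesenchyme, called NP in the labels, at E13.5.

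In the UB, HoxB7Cre-GFP marked and recombined the cells. The 4 UB dko libraries were Mek1fl/fl;Mek2-/-, UB ctrl libraries 1, 3 and 4 were Mek1fl/+;Mek2+/-, and UB ctrl library 2 was Mek1fl/+;Mek2+/+. In the NP, the Six2-TGC transgene marked and recombined the cells, with 3 NP dko libraries of Mek1fl/fl;Mek2-/- and 3 NP ctrl libraries of Mek1fl/+;Mek2+/+. By these labels every embryo carried Cre and a floxed Mek1 allele and both dko groups were null for Mek2, a germline allele. The study's methods also list UB controls of Mek1+/+;Mek2+/- and NP controls of Mek1fl/+;Mek2+/-, genotypes that none of the 14 labels gives. The background was a mix of C57BL6/Rcc and 129/SvEv. Both kidneys of an embryo were pooled, and only cells with GFP were collected. The sample titles also carry a code whose meaning is not given, and some libraries within a group share it. No ctrl library shares its code with a dko library of its tissue, so code and genotype cannot be told apart.

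Pyrimidines are made from glutamine, bicarbonate and aspartate by CAD, DHODH and UMPS, which end at UMP, and CTP synthase turns UTP into CTP. Ribonucleotide reductase converts ribonucleotides into the deoxynucleotides for DNA, while thymidylate synthase and thymidine kinase supply dTMP by synthesis and by salvage, and thymidylate kinase carries dTMP on to dTDP. The transcripts of several of these enzymes rise as cells enter S phase, and growth factor signaling through ERK and S6 kinase is known to act on the CAD protein itself.

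Total counts ranged from 4857053 to 7493144 in the UB libraries and from 1443582 to 6442484 in the NP libraries, where each NP dko library was shallower than every NP ctrl library. GC-rich transcripts were low in UB dko libraries 2 and 4 and in all 3 NP dko libraries. The log2 gap between the genes of lowest and highest GC content was 2.27 in UB dko library 2 and 1.62 in UB dko library 4. It was 2.20 to 3.23 in the NP dko libraries and -0.28 to 0.46 in the other libraries of both tissues. Mitochondrial rRNA took 1.40% to 7.02% of counts in UB dko against 1.05% to 1.37% in UB ctrl, and 11% to 15.9% in NP dko against 1.73% to 2.27% in NP ctrl, and Gm42418 alone took 32.5% in UB dko library 3. Each test of the members was therefore also run with offsets for GC content and transcript length fitted in each library, called GC offsets here. As a check of the labels, the ERK target Etv5 fell in both tissues, by 2.40 in the UB (adjusted p = 0.00211) and 1.40 in the NP (adjusted p = 0.000362) on the log2 scale. Map2k2, which encodes MEK2, was at 11.4 to 24.7 normalized counts in NP dko against 211 to 279 in NP ctrl. In UB dko libraries 1 and 3 it stood at 282 and 302, inside the UB ctrl range of 200 to 400.0. Libraries 2 and 4, the pair with the GC trend, were at 43.6 and 65.8. Map2k2 in libraries 1 and 3 thus goes against their Mek2-/- label, while Etv5 was low there too. Etv5 stood at 303 and 131 in libraries 1 and 3, against 997 to 1401 in UB ctrl. Reads of Map2k1, which encodes MEK1, were counted over the whole gene, including exons outside the deleted part, and check nothing. The 10 ureteric bud markers summed to 3111 to 3351 CPM in UB ctrl and 2529 to 2857 CPM in UB dko, and the 8 nephron progenitor markers to 1157 to 1344 CPM in NP ctrl and 949.6 to 1469 CPM in NP dko. Among the latter, Osr1 (log2 fold change -1.07, adjusted p = 0.00370) and Cited1 (-1.52, adjusted p = 0.0457) fell in the NP. Eya1 rose (0.77, adjusted p = 0.000987), and 4 others tested were not called.

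Per length of transcript, control levels differed widely among the members. In UB ctrl, in CPM per kb of transcript, Rrm2 stood at 68.4 ± 4.90 (SD, n = 4), Dtymk at 44.3 ± 5.96, Rrm1 at 42.9 ± 2.69, Ctps at 23.6 ± 0.857, Tyms at 21.3 ± 1.64, Umps at 20.7 ± 0.839, Cad at 15.9 ± 1.68, Tk1 at 9.91 ± 1.55 and Dhodh at 2.00 ± 0.531. Dtymk and Rrm1 overlapped in range, as did Tyms and Umps, while the other neighbours in this order did not. In NP ctrl the order by the same scale was Rrm2 (85.3 ± 12.9, SD, n = 3), Rrm1 (66.7 ± 2.02), Dtymk (57.8 ± 5.42), Tyms (28.1 ± 5.27), Ctps (26.8 ± 2.90), Cad (17.8 ± 2.28), Umps (16.8 ± 2.22), Tk1 (11.1 ± 1.80) and Dhodh (1.86 ± 0.118). There Tyms overlapped with Ctps and Cad with Umps. On this scale the genes for the reductase subunits and thymidylate kinase stood highest of the 9 in the controls of both tissues. The place of Dtymk depends on the length used, since its longest transcript has 1055 bases and its exons together 2631. Before division by length it was at 46.7 CPM in UB ctrl and 60.9 CPM in NP ctrl. Cad (114 and 127 CPM), Tyms (82.6 and 109 CPM) and Ctps (64.0 and 72.4 CPM) were then above it. Tk1 and Dhodh were below it. Dhodh, the mitochondrial dehydrogenase of the pathway, was the lowest.

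**Figure D1:**
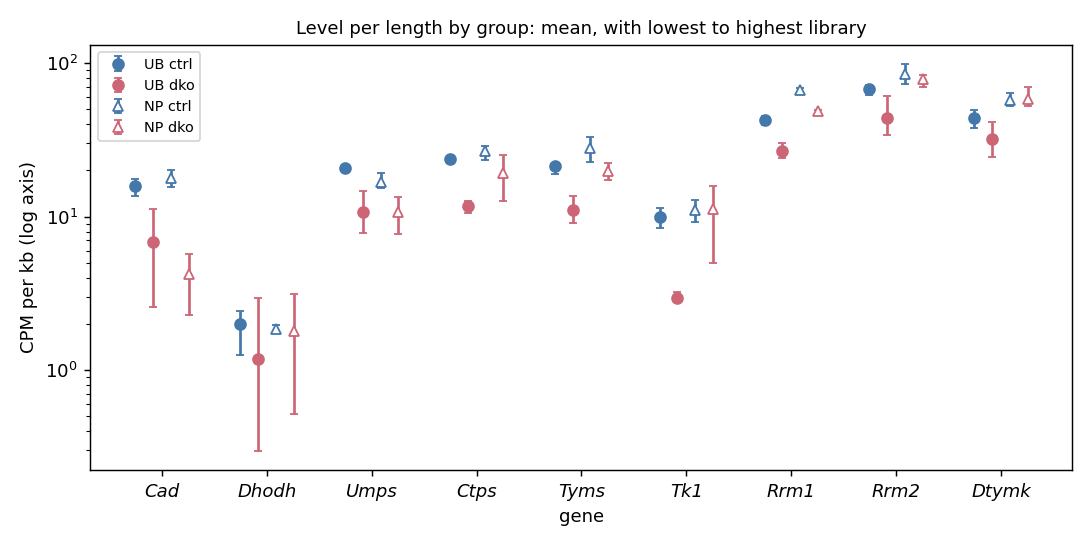
Level of each gene in CPM per kb of its longest transcript (log axis) in UB ctrl, UB dko (4 libraries each), NP ctrl and NP dko (3 libraries each); points are means and bars run from the lowest to the highest library. Tk1 in UB dko (2.93) lies far below its 3 other groups (9.91 to 11.3), and Dhodh is the lowest gene in each group.

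Only Rrm1, the large subunit of ribonucleotide reductase, differed between the controls of the 2 tissues. It was higher in NP ctrl by 0.64 on the log2 scale (SE 0.15, adjusted p = 0.00527), from 235 CPM in UB ctrl to 365 CPM in NP ctrl, in a comparison where 8.37% of all 15225 genes were called higher. Tissue, embryonic day and Cre line cannot be told apart in it, and most UB ctrl libraries were Mek2+/- where all NP ctrl libraries were Mek2+/+. The difference was not called when libraries were scaled by their totals alone or when no filter on low counts was used.

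The 5 members that fell in the UB are shown by the 130 bases that lie before their start, since genes that move together invite a look at their promoters. Windows of 250 bases before to 50 after the start were given by RefSeq (GRCm38.p6) for 8 of the 9 members. Dhodh was not among them, and Ctps had a pair of starts. The motifs searched on both strands were the E2F forms TTTCCCGC, TTTGGCGC, TTTGCCGC and TTTCGCGC, the E-box CACGTG, the CCAAT box CCAAT, the cell cycle homology region (CHR) as TTTGAA or TTCGAA, and the GC box GGGCGG, none of which contains another. The printed stretches run 5′ to 3′ on the strand of the gene, end at the base before the gene's start in the annotation, or for Tyms before its RefSeq start, which lies further upstream, and carry every match in capitals.
Umps, chr16:33967039-33967168, minus strand: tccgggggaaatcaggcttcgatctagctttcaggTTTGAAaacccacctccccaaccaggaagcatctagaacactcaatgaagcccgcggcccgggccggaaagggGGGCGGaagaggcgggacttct
Ctps, chr4:120570277-120570406, minus strand: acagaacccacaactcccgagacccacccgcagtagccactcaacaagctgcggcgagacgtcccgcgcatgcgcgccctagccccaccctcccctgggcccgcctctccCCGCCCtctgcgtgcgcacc
Tyms, chr5:30073626-30073755, minus strand: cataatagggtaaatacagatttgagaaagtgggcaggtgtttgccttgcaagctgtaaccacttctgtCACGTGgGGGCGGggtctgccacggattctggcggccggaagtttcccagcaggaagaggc
Tk1, chr11:117826093-117826222, minus strand: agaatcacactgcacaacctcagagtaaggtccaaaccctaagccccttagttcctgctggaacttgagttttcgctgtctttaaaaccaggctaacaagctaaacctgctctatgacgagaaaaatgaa
Rrm1, chr7:102441565-102441694, plus strand: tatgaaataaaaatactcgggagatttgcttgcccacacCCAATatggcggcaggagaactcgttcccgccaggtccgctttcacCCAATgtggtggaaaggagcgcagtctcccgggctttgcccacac
None of the 8 members had one of the E2F forms in its window, and 2.26% of all 32851 promoter windows did. Other spellings of the E2F site were not searched, so their absence is not shown. The E-box was found in Tyms and Dtymk (7.15% of all windows), the CCAAT box in Rrm1, Rrm2 and Dtymk (37.4%), a CHR form in Umps (19.2%) and the GC box in 6 members, Cad, Umps, Ctps, Tyms, Tk1 and Rrm2 (35.7%). The GC box of Tk1 lies downstream of the printed stretch. Among the 5 genes printed, Rrm1 had its pair of CCAAT boxes and no GC box, while Tyms held the E-box 1 base from its GC box, so no single motif searched was present in all 5.

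In the UB, MAPK/ERK deficiency was accompanied by lower transcript levels across this set. All 9 genes had a negative log2 fold change, with a median of -0.94 against 0.06 over all 13425 genes tested. Umps, Ctps, Tyms, Tk1 and Rrm1 fell at an adjusted p under 0.05, 5 of 9 where 1.24% of all genes were called lower, and no member rose (2.7% of all genes did). Only Tk1 also fell by at least 1 on the log2 scale, as 0.983% of all genes did. Cad, Dhodh, Rrm2 and Dtymk did not pass. The groups did not overlap for 7 members, all lower in UB dko, where 7.06% of all genes were lower without overlap. The set was chosen with earlier results of these data known, so these shares describe it and test nothing. In sorted bulk samples, fewer cells in a given state and less RNA per cell cannot be told apart.

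The calls depended on which libraries entered. Without UB ctrl library 1 only Tk1 was called, and without UB ctrl library 2, 3 or 4 edgeR called no member, although 7 had an unadjusted p under 0.05 in each of these fits. Of all genes, 0.766%, 0.289%, 0.427% and 0.469% were called in either direction without UB ctrl library 1, 2, 3 and 4. DESeq2 on all 8 libraries called 6 (Cad, Umps, Ctps, Tyms, Tk1 and Rrm1), where 525 of 15493 genes were called lower. Without UB dko library 1, 2, 3 or 4 the count was 6, 3, 6 and 1. In these fits 10.1%, 2.71%, 5.96% and 0.982% of all genes were called in either direction. All 9 stayed negative in each of the 8 fits that left out a library. UB dko libraries 1 and 3 lack the GC trend but are the libraries labelled dko whose Map2k2 was at control level (282 and 302). With them alone 6 members fell (Cad, Umps, Ctps, Tyms, Tk1 and Rrm1), where 567 of 14581 genes were called lower.

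Cad encodes the enzyme that carries the opening steps of pyrimidine synthesis (GRCm38 chr5:31054780-31078479, plus strand). Its normalized counts were 618, 794, 726 and 752 in UB ctrl libraries 1 to 4 and 422, 118, 513 and 188 in UB dko libraries 1 to 4. Every dko library was below every control, but dko libraries 2 and 4 were far lower than 1 and 3. The log2 fold change was -1.22 (SE 0.38, adjusted p = 0.0941). With GC offsets it was -1.09 (SE 0.17, adjusted p = 0.00135), and with UB dko libraries 1 and 3 alone -0.67 (adjusted p = 0.0342). Cad is GC-rich (57.4% of its longest transcript), and the fifth of genes with the highest GC content, which holds it, had a median of -0.30 in the UB.

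Dhodh encodes the only mitochondrial enzyme of the pathway (chr8:109591343-109608673, minus strand) and was thinly counted. It stood at 30.3, 58.6, 48.9 and 56.1 normalized counts in UB ctrl and at 19.9, 7.26, 72.2 and 15.2 in UB dko. Dko library 3 was above all controls and the other dko libraries were below them. The log2 fold change of -0.77 had an SE of 0.65 (adjusted p = 0.539) and did not pass, with 5 reads in the library that had the fewest. Without UB dko library 3 it was -1.77 (adjusted p = 0.0742), and voom with quality weights called Dhodh lower on all 8 libraries (-1.67, adjusted p = 0.0359).

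Umps encodes UMP synthase (chr16:33954782-33967038, minus strand). It was at 452, 485, 458 and 441 normalized counts in UB ctrl and at 328, 176, 257 and 195 in UB dko. The controls were close together and all dko libraries lay below them. The log2 fold change was -0.94 (SE 0.23, adjusted p = 0.0438). Exons of the antisense gene Gm15829 cover 213 bases (6.11%) of its exons, and whether counting used strand was not given in the sources used here, so a part of its reads could belong there.

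Ctps encodes CTP synthase (chr4:120539868-120570276, minus strand). Normalized counts were 417, 422, 401 and 388 in UB ctrl and 197, 219, 217 and 182 in UB dko. Both groups were tight and did not overlap, and the mean fell from 407 ± 15.3 to 204 ± 17.4 (SD, n = 4). On the log2 scale the change was -0.998 with an SE of 0.19 (adjusted p = 0.0172). Its paralog Ctps2 stood at 143 to 196 in UB ctrl and 158 to 267 in UB dko (log2 fold change 0.37, adjusted p = 0.424).

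Tyms, thymidylate synthase (chr5:30058202-30073617, minus strand), has a processed pseudogene, Tyms-ps, that could take some of its reads. It had 471, 555, 554 and 523 normalized counts in UB ctrl and 292, 341, 240 and 226 in UB dko. The groups were apart, and the change on the log2 scale was -0.94 with an SE of 0.20 (adjusted p = 0.0268).

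Tk1, the cytosolic thymidine kinase of salvage (chr11:117815526-117826092, minus strand), was low in every UB dko library. Its normalized counts were 138, 180, 134 and 176 in UB ctrl and 43.8, 46.5, 51.7 and 44.6 in UB dko. All 4 dko libraries were nearly alike, including the pair with the GC trend and the pair without it, and none reached the lowest control. The level was 3.37-fold lower (log2 fold change -1.75, SE 0.30, adjusted p = 0.0125), and it was -1.51 with GC offsets (adjusted p = 0.00378). The mitochondrial kinase Tk2 was at 43.9 to 89.8 in UB ctrl and 35.5 to 98.0 in UB dko (log2 fold change -0.17, adjusted p = 0.860). Tk1 shares 83 exon bases (1.6%) with Afmid on the other strand.

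Dtymk, the thymidylate kinase (chr1:93792576-93801934, minus strand), overlapped between the groups, at 328, 254, 335 and 273 normalized counts in UB ctrl and 278, 167, 187 and 231 in UB dko. The log2 fold change of -0.46 (SE 0.23, adjusted p = 0.288) did not pass.

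Both subunits of ribonucleotide reductase were lower on average in UB dko, and only the large subunit passed. Rrm1 (chr7:102441695-102469771, plus strand) was at 1586, 1448, 1561 and 1383 normalized counts in UB ctrl and 952, 895, 847 and 1053 in UB dko. No library of one group reached the other, and the log2 fold change was -0.67 (SE 0.16, adjusted p = 0.0431). Rrm2, the small subunit that is made in S phase (chr12:24708241-24714146, plus strand), was at 1015, 1006, 866 and 934 in UB ctrl and 857, 558, 477 and 578 in UB dko. Dko library 1 nearly reached the lowest control while the other dko libraries were clearly lower, and the log2 fold change of -0.63 had an SE of 0.21 and an adjusted p of 0.110. Rrm2b, the subunit used outside S phase, stood at 114, 288, 98.0 and 310.0 in UB dko against 58.4 to 128 in UB ctrl, high only in dko libraries 2 and 4, the pair with the GC trend (log2 fold change 1.02, adjusted p = 0.187).

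**Figure D2:**
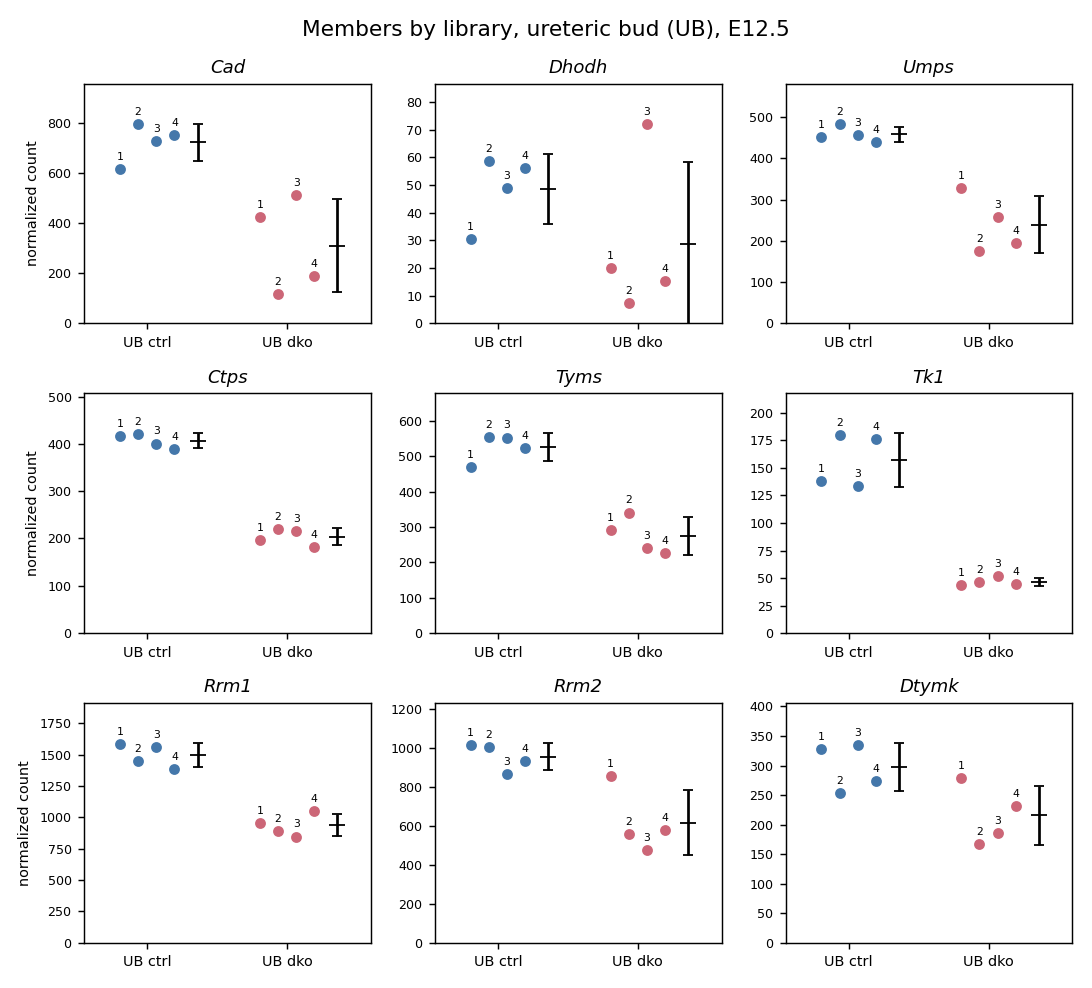
Normalized counts of the 9 genes in the UB libraries; each point is a library with its number, and the bars are the mean ± SD of 4 libraries, cut off at 0 for Dhodh. Tk1 lies between 43.8 and 51.7 in the 4 UB dko libraries and between 134 and 180 in the controls, while Cad spreads from 118 to 513 in UB dko.

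In the NP, Cad, Umps, Tyms and Rrm1 fell, 4 of 9, in a comparison where 27.9% of all 12431 genes tested were called lower, and no member rose (25% of all genes did). Cad alone fell by at least 1 on the log2 scale, as 23.1% of all genes did. The median log2 fold change of the members was -0.48, against -0.05 over all genes. Ctps, Tk1, Rrm2, Dtymk and Dhodh did not pass. The groups did not overlap for the same 4 called genes, and 32.8% of all genes were lower without overlap. With GC offsets 3 of them fell (Cad, Tyms and Rrm1), where 1368 of 12431 genes were called lower. Without NP ctrl library 1 or NP dko library 3 only Cad and Rrm1 were called, where 45.5% and 38.4% of all genes were called in either direction. The 8 renal stroma markers moved with the groups, at a sum of 146 to 226 CPM in NP ctrl and 270.4 to 345 CPM in NP dko, where Foxd1 and Meis1 rose, Pdgfrb fell and none was at 0 in all libraries. Their part in the result was not tested.

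Cad was at 565, 491 and 626 normalized counts in NP ctrl libraries 1 to 3 and at 69.7, 180 and 143 in NP dko libraries 1 to 3. All dko libraries were far below the controls. The level was 4.43-fold lower (log2 fold change -2.15, SE 0.28, adjusted p = 3.40e-05). Its GC content moves with this result, since the fifth of genes with the highest GC content had a median of -1.73 in the NP. With GC offsets the log2 fold change of Cad was -0.69 (SE 0.22, adjusted p = 0.0377).

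Umps was at 299, 237 and 239 normalized counts in NP ctrl and 162, 209 and 117 in NP dko. The groups did not overlap, though dko library 2 came near the controls, and the log2 fold change was -0.69 (SE 0.24, adjusted p = 0.0280). With GC offsets it was -0.60 and no longer passed (adjusted p = 0.0861). Dhodh was at 29.3, 33.1 and 31.4 in NP ctrl and 27.6, 53.0 and 8.49 in NP dko. Its dko libraries fell on both sides of the controls (log2 fold change -0.16, adjusted p = 0.831), with 37 reads in the 3 dko libraries together. Ctps was at 345, 336 and 276 in NP ctrl and 295, 152 and 227 in NP dko. Dko library 1 lay within the control range, and the log2 fold change of -0.48 (SE 0.24, adjusted p = 0.101) did not pass. Ctps2 had a log2 fold change of -0.60 (adjusted p = 0.180).

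Tyms was at 487, 391 and 564 normalized counts in NP ctrl and 373, 336 and 290 in NP dko. The highest dko library was just below the lowest control, and the log2 fold change was -0.53 (SE 0.19, adjusted p = 0.0331). DESeq2 did not call it (adjusted p = 0.0722). Tk1 was at 125, 101 and 139 in NP ctrl and 53.5, 145 and 170 in NP dko. Dko library 1 was below the controls and dko libraries 2 and 3 above them, and the change on the log2 scale was -0.01 with an SE of 0.36 (adjusted p = 0.988). With GC offsets it was 0.74 (adjusted p = 0.139). Tk2 fell (log2 fold change -1.15, adjusted p = 0.0331) and did not pass with GC offsets (-0.33, adjusted p = 0.616). Dtymk was at 297, 247 and 262 in NP ctrl and 316, 247 and 239 in NP dko, and the groups overlapped (log2 fold change 0.00, adjusted p = 0.999).

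Rrm1 was at 1602, 1580 and 1648 normalized counts in NP ctrl and at 1134, 1156 and 1183 in NP dko. These were the tightest groups of any member in the NP, and they were far apart. The log2 fold change was -0.48 (SE 0.14, adjusted p = 0.0116), and with GC offsets it was -1.14 (SE 0.13, adjusted p = 2.74e-05). Rrm1 has a GC content of 43.3%, and the fifth of genes that holds it had a median of 0.49 in the NP. Rrm2 was at 811, 714 and 947 in NP ctrl and 780, 682 and 798 in NP dko, with the groups overlapping (log2 fold change -0.13, adjusted p = 0.536). Rrm2b rose from 43.5 to 51.4 in NP ctrl to 121 to 184 in NP dko (log2 fold change 1.55, SE 0.30, adjusted p = 0.000795), and was not called with GC offsets (0.28, adjusted p = 0.559).

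**Figure D3:**
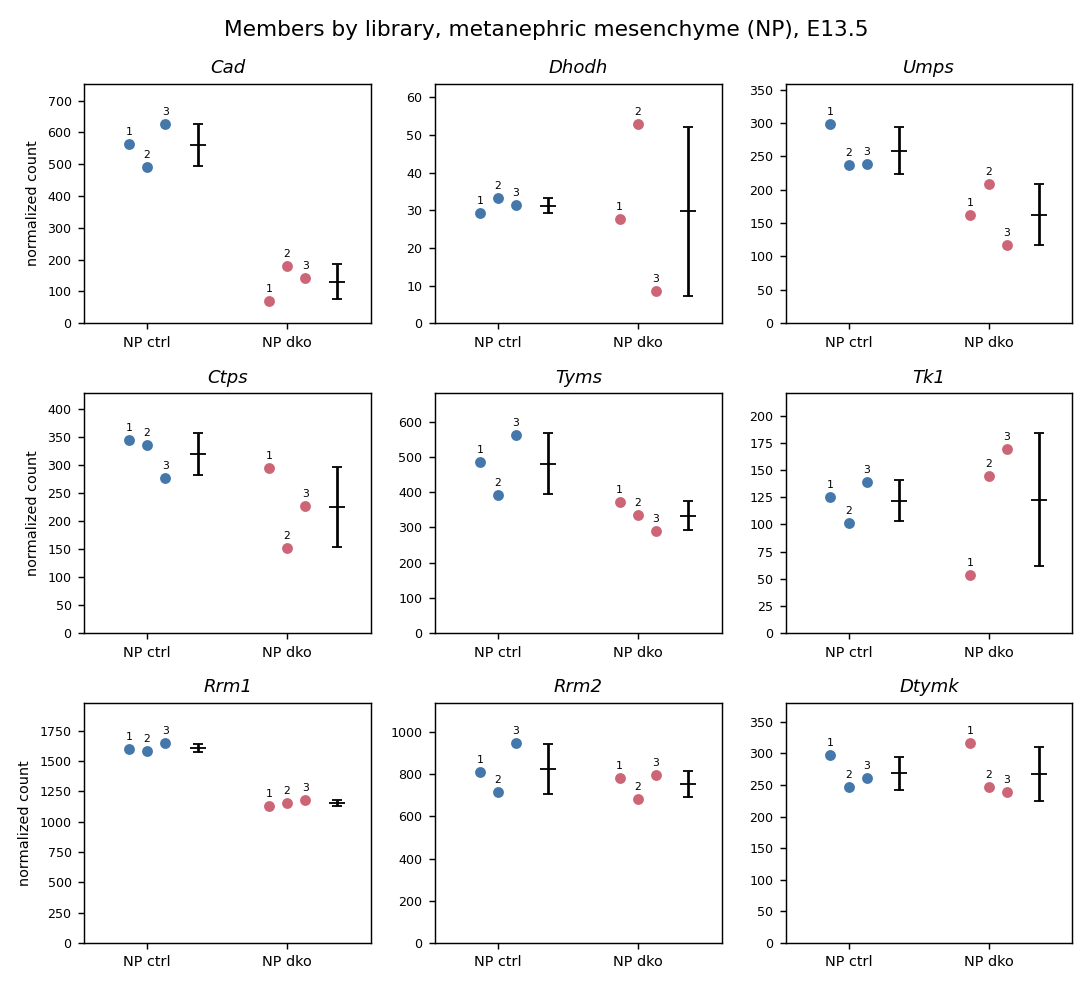
Normalized counts of the 9 genes in the NP libraries; each point is a library with its number, and the bars are the mean ± SD of 3 libraries. Cad lies between 69.7 and 180 in NP dko against 491 to 626 in NP ctrl, Rrm1 is tight in both groups, and Tk1 in NP dko falls on both sides of its controls.

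The effects in the 2 tissues were compared in a single fit over all 14 libraries. Only Tk1 differed, with an NP effect that was 1.77 above the UB effect on the log2 scale (SE 0.49, adjusted p = 0.0408), where 1.81% of 15225 genes were called higher. In this fit the difference stayed positive, from 1.42 to 2.14, when each library was left out in turn, and was called in 3 of those 14 fits (without UB dko library 2, UB dko library 4 or NP dko library 1). With GC offsets it was 2.22 (adjusted p = 0.00787). Cad had an NP effect of -0.89 relative to the UB (SE 0.54, adjusted p = 0.309), and 0.33 with GC offsets. For the other 7 members the difference ranged from 0.22 in Rrm1 to 0.66 in Dhodh, and none passed. Tissue, embryonic day and Cre line cannot be told apart here either, and the controls of the tissues also differ in Mek2 copies.

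**Figure D4:**
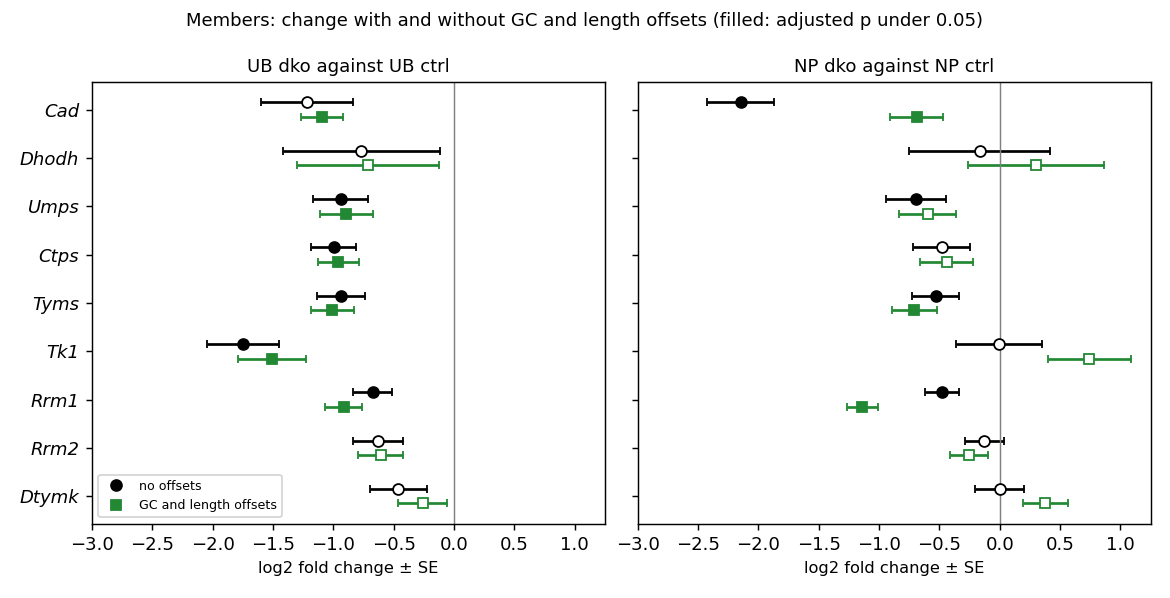
Log2 fold change ± SE of each gene in dko against ctrl, in the UB (left) and the NP (right), without offsets (circles) and with GC and length offsets (squares); filled marks have an adjusted p under 0.05. In the UB the pairs of marks lie close together, while in the NP Cad moves from -2.15 to -0.69 and Rrm1 from -0.48 to -1.14.

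Library by library, the members were on the whole lower in every dko library. The median of the 9 log2 differences from the control mean of the tissue was -0.77, -0.89, -0.83 and -1.21 in UB dko libraries 1 to 4, and -0.35, -0.30 and -0.48 in NP dko libraries 1 to 3. S phase and replication genes (28 genes) had medians of -0.55, -1.38, -0.81 and -1.01 in the UB dko libraries and -0.85, -0.88 and -0.95 in the NP dko libraries. The genes of G2 and mitosis (17 genes) stood at -0.76, -0.65, -1.27 and -0.74 in the UB and -0.64, -0.33 and -0.61 in the NP. The medians of both cell cycle lists were thus also negative in every dko library, though their order of libraries differed from that of the members. In the NP the members lay nearer to the controls than the S phase genes did. None of these medians used GC offsets. The part of the cell cycle in the result was not tested.

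**Figure D5:**
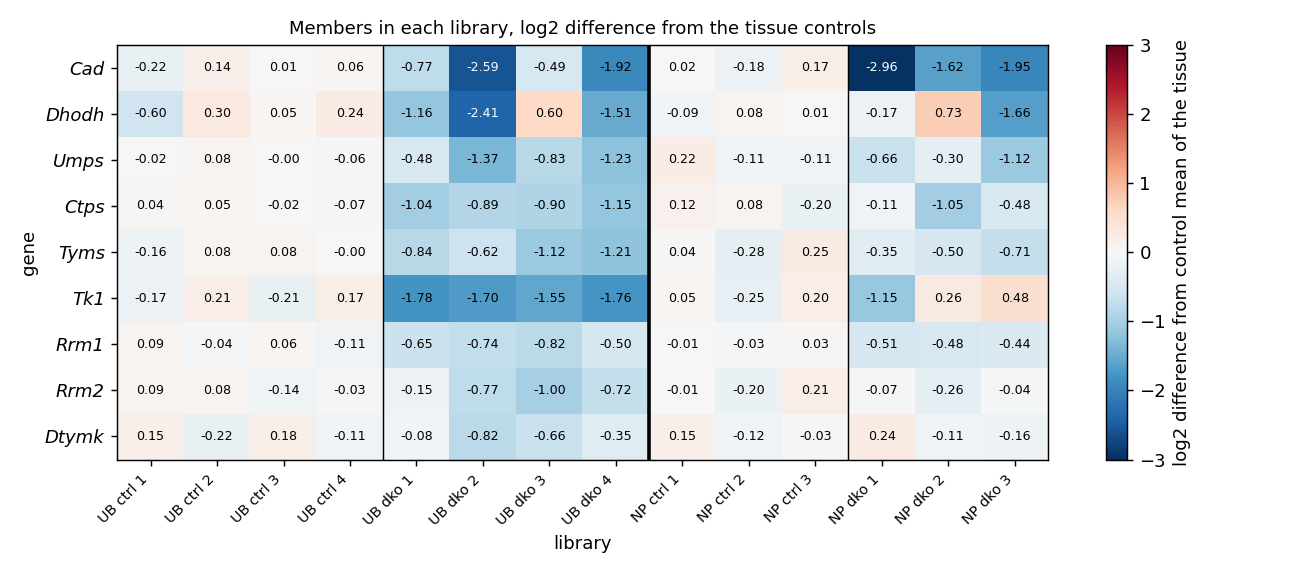
Log2 difference of each gene from the control mean of its tissue in each of the 14 libraries (blue lower, red higher; values printed in the cells). In UB dko only Dhodh in library 3 is above the controls (0.60) and Tk1 lies between -1.78 and -1.55 throughout, whereas NP dko is mixed, with Cad from -2.96 to -1.62.

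Across the 8 UB libraries the members rose and fell together, which is a description since ctrl and dko libraries are pooled in it and share their depth and scaling. Pearson r between pairs was 0.98 for Ctps and Tk1 and 0.95 for Ctps and Tyms, and Dhodh had the weakest links (0.32 with Rrm2). In the 6 NP libraries Cad and Rrm1 had an r of 0.95, while Tk1 and Dtymk had -0.75. The 5 genes outside the lists whose log2 CPM was most like the mean of the members in the UB were Dusp4 (r = 0.997), a phosphatase of ERK, then Pola2 (0.987), a subunit of DNA polymerase alpha, Pwp2 (0.983), Alkbh1 (0.980) and Pa2g4 (0.980), out of 13301 genes. In the NP, out of 12311 genes, they were Tgfb1i1 (0.997), ENSMUSG00000092486 (0.993), Dpysl2 (0.991), Rassf2 (0.990) and Mroh1 (0.989).

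The rest of the pathway was described by 37 further genes, of which 30 were tested in each tissue. In the UB, 2 fell and none rose, where 1.24% and 2.7% of all genes did, and the median log2 fold change was -0.44. Uck2, a uridine-cytidine kinase of salvage, was at 524 to 652 normalized counts in UB ctrl and 257 to 323 in UB dko (log2 fold change -1.06, SE 0.19, adjusted p = 0.0145). Dctd, the deaminase that makes dUMP for thymidylate synthase, was at 298 to 345 in UB ctrl and 69.5 to 208 in UB dko (log2 fold change -1.36, SE 0.33, adjusted p = 0.0431). Of the genes of the thymidylate cycle and its folate supply, only Dctd passed.

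In the NP, 11 of the 30 fell and 5 rose, against 27.9% and 25% of all genes. Among the genes of folate supply, Shmt2 (mitochondrial serine hydroxymethyltransferase) fell by 2.66 on the log2 scale (adjusted p = 5.65e-05), and Mthfd1 by 1.38 (adjusted p = 0.000103). Of the salvage genes, Dck (deoxycytidine kinase) rose by 1.63 (adjusted p = 5.95e-05), Uprt by 1.78 (adjusted p = 0.00101), Uck1 fell by 2.39 (adjusted p = 0.00172) and Uck2 fell by 0.77 (adjusted p = 0.00317). Cmpk1, the UMP-CMP kinase, rose by 1.37 (adjusted p = 3.31e-05), and Nme6 fell by 3.52 (adjusted p = 0.000134). Nme2, a nucleoside diphosphate kinase with a near-identical neighbour, Nme1, had 186 reads in the NP ctrl libraries and 1 in the NP dko libraries. Nt5c3b, a nucleotidase, fell by 1.27 (adjusted p = 0.00447). With GC offsets 7 of the 30 were called, 5 lower and 2 higher, where 21.9% of all genes were called. Dck (0.95), Uprt (1.34) and Nme6 (-2.26) were among the 7, while Uck2 (0.18) and Nt5c3b (0.08) turned positive and did not pass. Shmt2 (adjusted p = 0.0674), Mthfd1 (-0.57, adjusted p = 0.0622), Uck1 (-0.87, adjusted p = 0.263) and Cmpk1 (0.11, adjusted p = 0.671) were not called with GC offsets either.

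Genes known to control these enzymes were listed too, 13 in all. In the UB 5 fell and 1 rose, where 1.24% of all genes fell and 2.7% rose. E2f7 and Mycn, transcription factors of cell cycle and growth genes, fell by 1.18 (adjusted p = 0.0217) and 1.29 (adjusted p = 0.0235), and Rb1, which holds E2F factors back, rose by 1.30 (adjusted p = 0.0211). In the NP 5 fell and 4 rose, where 27.9% and 25% of all genes did, among them E2f1 and E2f2, lower by log2 fold changes of -1.75 and -1.83 (adjusted p = 0.00254 and 0.00253), and Rps6kb1, the S6 kinase that acts on CAD, higher by 1.38 (adjusted p = 2.85e-05), with Rb1 higher by 1.21 (adjusted p = 0.000210). With GC offsets these 4 were not called in the NP, at -0.03 for E2f1 (adjusted p = 0.965), -0.41 for E2f2 (adjusted p = 0.530), 0.05 for Rps6kb1 (adjusted p = 0.821) and 0.20 for Rb1 (adjusted p = 0.505), while in the UB E2f7 (-1.15), Mycn (-0.98) and Rb1 (0.90) were. The same shares of all genes, 1.24% lower in the UB, and 27.9% lower and 25% higher in the NP, stand beside the counts of cell cycle genes. Those counts and the changes that follow are without GC offsets. Of the S phase genes 7 of 28 fell in the UB, led by Cdc6 (-1.33, adjusted p = 0.00772) and Uhrf1 (-1.11, adjusted p = 0.0152), and 18 fell and 1 rose in the NP, led by Mcm2 (-1.98, adjusted p = 1.36e-06) and Chaf1a (-2.51, adjusted p = 9.95e-06) with Ccne2 higher (1.61, adjusted p = 9.90e-06). Of the G2 genes 7 of 17 fell in the UB, led by Plk1 (-1.85, adjusted p = 0.00582) and Kif20a (-0.94, adjusted p = 0.0201), and 9 fell and 3 rose in the NP, where Cdc20 (-1.74, adjusted p = 8.87e-05) and Aurka (-1.82, adjusted p = 0.000265) were the lowest in p and Bub1 (0.52, adjusted p = 0.0292) and Kif11 (0.49, adjusted p = 0.0345) rose.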

How the data were processed

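RNA-Seq libraries (NuGen Ovation Solo, single-end) of sorted GFP-positive cells from 14 embryos were analysed. The authors trimmed reads, aligned them with STAR to GRCm38 and counted reads per gene with featureCounts, and deposited raw counts per gene. Whether counting used strand was not given in the sources used here. Gene identifiers were matched to GENCODE M21 (GRCm38) for 55154 of 55335 UB and 52489 of 52636 NP identifiers.

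Genes were kept by filterByExpr (minimum count 10, minimum total 15), scaled by TMM and tested with the robust quasi-likelihood F test of edgeR 4.0.16 in R 4.3.3, in each tissue alone and, for comparisons between tissues, over all 14 libraries. P-values were adjusted by Benjamini-Hochberg over all genes tested, and a call is an adjusted p under 0.05. Normalized counts are counts at the mean effective library size of the tissue. Total counts were 1443582 to 7493144 per library, and precision is lowest for Dhodh. The fits were tested on simulated data.

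Alternatives were DESeq2 1.42.0, RLE scaling, library size alone, other filters, limma 3.58.1 voom with quality weights, a replicate block, GC and length offsets (splines of 4 degrees of freedom), a log2 fold change of at least 1, and leaving out libraries. The members and lists were chosen with earlier results of these data known. Named genes were the 9 members, their paralogs, in each list and tissue at most the 2 called genes of smallest adjusted p in each direction, and the 5 genes most like the members by Pearson r. No 2 libraries agreed within sampling noise. A gene that this rule names is not reported here.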

Additional observations from a re-analysis of the deposited data

Results flagged for a closer look

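The change of Tk1 differed between the tissues in the fit over all 14 libraries: the NP effect was 1.77 above the UB effect on the log2 scale (SE 0.49, adjusted p = 0.0408). Tk1 was lower in 4 of 4 UB dko libraries and in 1 of 3 NP dko libraries than in every control of its tissue. None of the 18 sets of 4 UB libraries (9 genes in 2 groups) had a library standing apart by Dixon's test, and chance alone gives about 1 in 20.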

How the results depend on the processing

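In the UB the count of members called was 5. It was 8 with voom and quality weights, 6 with GC offsets and 7 with GC offsets and the block. With the replicate block alone it was 0 (edgeR, 7 at an unadjusted p under 0.05). It was 1 when a log2 fold change of at least 1 was also asked, and 0 to 6 when each library was left out in turn. Voom called 34.6% of all UB genes, GC offsets 10.2%, GC offsets with the block 7.64% and the block alone 0.499%. In the NP the count of 4 became 1 with the fold threshold and 2 to 4 with a library left out. Of the 30 further pathway genes, the count of 2 in the UB was 8 with DESeq2, 1 with library size only, 5 with no filter, 14 with voom, 0 with the block, 4 with GC offsets, 4 with UB dko libraries 1 and 3 only and 0 to 9 with a library left out, and the count of 16 in the NP was 7 with GC offsets, 7 with GC offsets and the block and 11 to 14 with a library left out. The single member that differed in effect between tissues became 0 with library size only, 0 with the replicate block, 2 with voom, 2 with UB dko libraries 1 and 3 only and 0 to 1 with a library left out. The single member that differed between controls became 0 with library size only, 0 with no filter, 0 with the fold threshold, 2 with voom and 2 with GC offsets. The cause of these shifts was not tested. After the mean of its group was subtracted from each gene, same-numbered ctrl and dko libraries correlated at -0.28, -0.09, 0.12 and -0.06 in the UB. These values gave no sign that the numbers pair the samples. The block fit gave 13 lower and 54 higher calls over all UB genes against 166 and 362 without it.

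Some directions turned, among them those of Uck2 (-0.77) and Nt5c3b (-1.27), which were called in the NP, and of the difference in effect of Cad (-0.89). With GC offsets, alone or with the block, log2 fold changes became 0.050 and 0.015 for Tk2 in the UB, 0.30 and 0.14 for Dhodh, 0.74 and 0.64 for Tk1, 0.18 and 0.17 for Uck2 and 0.082 and 0.074 for Nt5c3b in the NP, and the differences in effect became 0.33 and 0.33 for Cad and -0.21 and -0.19 for Rrm1, and that between controls 0.090 and 0.080 for Dhodh. With UB dko libraries 1 and 3 only they were 0.099 for Tk2 in the UB, and -0.090 for Dhodh and -0.086 for Umps as differences in effect. In the NP, Tk1 was 0.045 with DESeq2, 0.058 with RLE scaling, 0.015 with a mean count of 10 and 0.054 with voom, Rrm2 was 0.0055 with voom, and Dtymk was -0.39 with library size only, -0.085 with no filter, -0.037 with voom and -0.012 with the block. With a library left out the range was -0.62 to 0.055 for Tk2 in the UB, and -0.78 to 0.32 for Dhodh, -0.37 to 0.40 for Tk1 and -0.12 to 0.082 for Dtymk in the NP.

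Over all genes, 166 fell and 362 rose in the UB, and 220 fell and 58 rose with library size only, where the median of all genes moved to -0.28 in the UB and -0.44 in the NP and the medians of the members to -1.27 and -0.86. In the NP, 3465 fell and 3105 rose, 4701 and 1871 with library size only, and 1368 and 1352 with GC offsets. DESeq2 called 525 and 883 in the UB, voom 2202 and 2438. Dhodh had 98 reads in the UB dko libraries and 37 in the NP dko libraries together.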
